A study of Arabidopsis thaliana with 9 samples.

Results

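Callus is an unorganised mass of dividing cells that plant explants form on medium with auxin and cytokinin, and the comparison here is between callus of the Arabidopsis thaliana mutant emf2 and callus of the wild type. The 6 libraries were chosen by their labels: 3 biological replicates of callus from wild-type Col-0 and 3 of callus from emf2, out of 9 libraries in the series. The headers name the allele as emf2-1, and its lesion is not described in the labels. Both groups came from cotyledons kept on a Gamborg B5 medium whose auxin was 2,4-dichlorophenoxyacetic acid at 2.2 µM and whose cytokinin was kinetin at 0.46 µM. They had 7 days of light and then darkness, and were taken at 6 to 8 weeks. The controls thus shared the medium, the hormones and the dark with the mutant. How many calli or plants went into each library is not stated, and p-values measure the spread between these libraries. Expression is given as RPKM, a read count corrected for the length of the gene and the depth of the library. There is 1 table per group, and it holds only genes with a group mean above 1 RPKM. Of 18861 genes in the tables of the whole series, 17164 were listed in a callus table: 16185 in both, 461 in the emf2 table alone and 518 in the wild-type table alone. The reads recovered from these values numbered 38.5 M to 51.6 M per library over the genes listed in both tables, and 1 RPKM stood for 110 to 158 reads at the gene of median length.

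EMF2 (EMBRYONIC FLOWER 2) is a subunit of Polycomb Repressive Complex 2 (PRC2), which silences genes by placing 3 methyl groups on lysine 27 of histone H3. In Arabidopsis the complex takes 1 of several alternative subunits of the same kind, EMF2, VRN2 or FIS2, together with a histone methyltransferase, CLF, SWN or MEA, and with FIE and MSI1. EMF2 with CLF or SWN keeps the genes of flower organs off in seedlings, and emf2 plants are known for forming flowers soon after germination, skipping the rosette. EMF1, a plant protein that works with the complex, gives the same kind of mutant. In callus, Polycomb silencing has been studied because the leaf programme has to be closed and a root-like programme opened when callus forms.

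The libraries of the 2 genotypes overlapped on the first principal component and lay apart in the plane of the first and second. The first principal component of log2(RPKM + 1) held 53.0% of the variance, and wild-type replicate 2 lay at 13.2 on it, between emf2 replicate 3 at 8.25 and emf2 replicates 1 and 2 at 27.5 and 31.2. Wild-type replicates 1 and 3 lay at −24.4 and −55.7. On the second component, with 20.8% of the variance, the wild-type libraries lay at −23.3, −27.8 and 13.6 and the emf2 libraries at 7.13, 4.82 and 25.5. The emf2 libraries correlated with each other across genes at 0.970 to 0.976. The correlation of wild-type replicate 2 across genes was 0.965, 0.954 and 0.952 with the emf2 libraries, and 0.950 and 0.915 with wild-type replicates 1 and 3. Some results below, among them the count of genes that passed, are therefore also given without this library. The others rest on all 6 libraries. Wild-type replicate 2 was singled out for its likeness to the emf2 libraries, so leaving it out tends to widen the difference between the groups. Results without it are therefore a description and add no support. For most single genes near the threshold, only this omission is given. Markers of the root stem cell and lateral root founder programme, on which callus is known to draw, were present in both genotypes: 17 of 22 genes of that list were in both tables, among them WOX5, WOX11, PLT1, SHR and SCR.

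**Figure D1:**
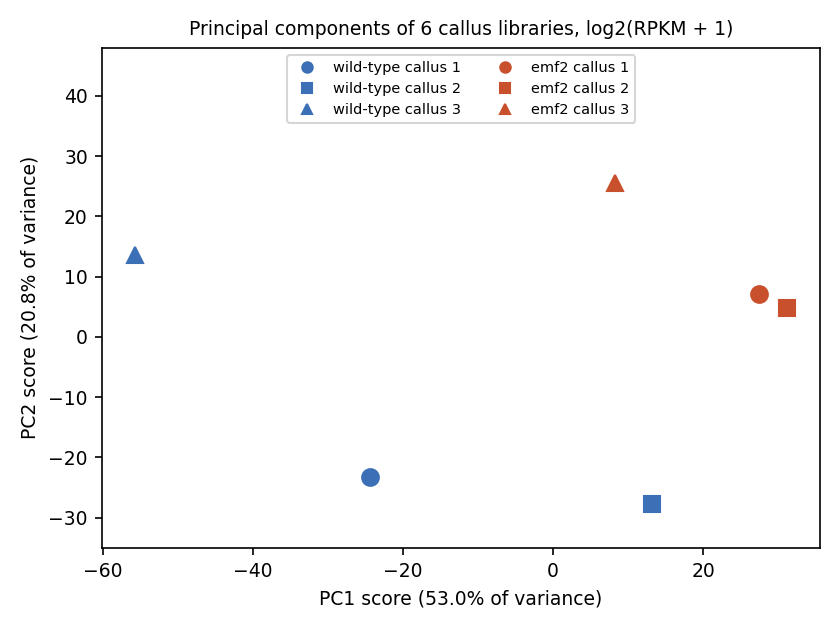
Scores of the 6 callus libraries on the first and second principal components of log2(RPKM + 1), with the share of variance on each axis; blue marks wild-type callus, red emf2 callus, and the shape gives the replicate. Wild-type replicate 2 lies at 13.2 on the first component, among the emf2 libraries at 8.25 to 31.2.

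EMF2 itself was read at a higher level in the mutant libraries. Its level was 7.43, 6.78 and 7.55 RPKM in wild-type callus and 13.0, 15.5 and 16.3 RPKM in emf2 callus, so the groups did not overlap and the means stood 2.06-fold apart. The difference was 0.95 ± 0.11 (SE) on the scale of log2(RPKM + 1) with a limma adjusted p of 0.0564, which misses the threshold of 0.05. Without wild-type replicate 2 it was 0.90 with an adjusted p of 0.0425. Without any 1 of the other libraries the adjusted p was 0.0884 to 0.254, with the replicate number as a block 0.096, and with all 9 libraries in the fit 0.652. A reading over the whole gene does not show whether the RNA carries the lesion, and so does not check the genotype. The closest relative of EMF2 by sequence was VRN2, with 74.0% identity over 384 aligned bases. VRN2 stood at 6.19, 6.64 and 7.41 RPKM in wild-type callus and at 6.51, 6.40 and 6.67 RPKM in emf2 callus.

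Between emf2 and wild-type callus, 20 of the 16185 genes listed in both tables passed the test, which was limma on log2(RPKM + 1) with Benjamini-Hochberg adjustment over all of them. This was 0.124% of the genes tested. The rises were 11 (0.068%) and the falls 9 (0.0556%), and 19 of the 20 differed by at least 2-fold on the scale of the test. At an unadjusted p under 0.05 there were 2021 genes, 1018 higher and 1003 lower. The median log2 fold change over all genes tested was 0.00101, and the median standard error was 0.138. Without wild-type replicate 2 the count was 254, of which 104 were higher and 150 lower, and all 20 genes were among them. The count was 11 without wild-type replicate 1, 28 without replicate 3, and 8, 8 and 7 without emf2 replicates 1, 2 and 3. Whichever library was left out, 6 of the 20 passed: the rises of AT2G25330, EMF1, AT5G60610, AT5G05040 and AT5G05060 and the fall of MSRB5. A count that does not use the spread gave a larger set: in 272 genes (1.68%) all 3 emf2 libraries were above all 3 wild-type libraries with means at least 2-fold apart, and in 268 genes (1.66%) the reverse held.

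**Figure D2:**
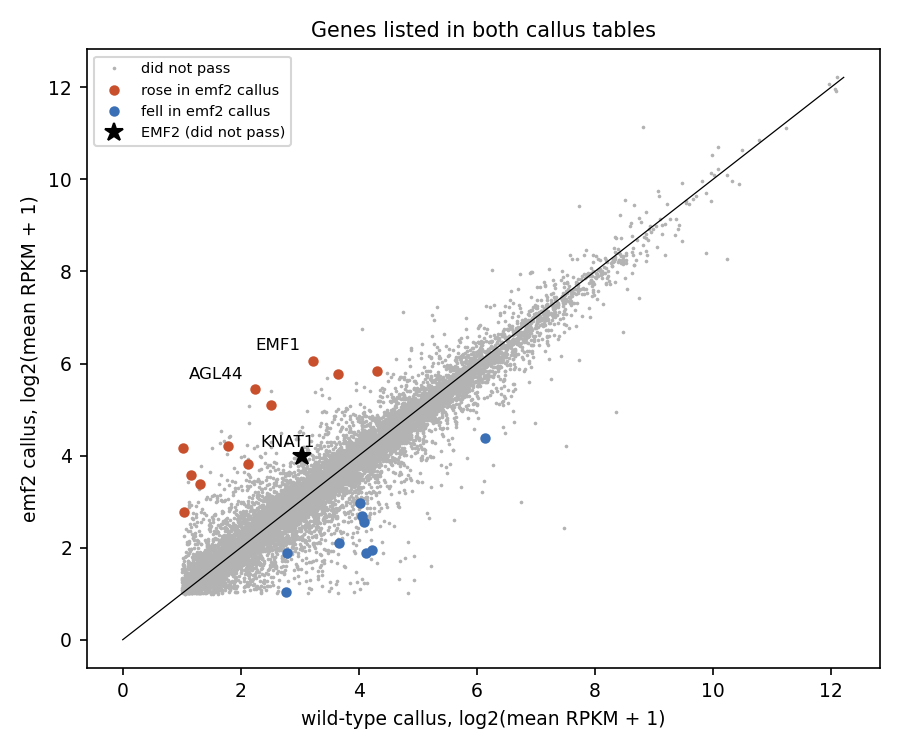
Each point is 1 of the 16185 genes listed in both callus tables, with log2(mean RPKM + 1) in wild-type callus on the horizontal axis and in emf2 callus on the vertical axis, each mean over 3 libraries; the line marks equal levels. The 11 genes that rose (red) and the 9 that fell (blue) are few beside the genes that did not pass, and EMF2 (star) lies above the line.

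Regulators of transcription and of chromatin were among the largest rises. AGL44, also known as ANR1, a MADS-box transcription factor with a role in the response of roots to nitrate, was at 4.98, 2.73 and 3.54 RPKM in wild-type callus. In emf2 callus it was at 38.4, 45.9 and 43.4 RPKM. Every emf2 library was thus several times above every wild-type library, and the means were 11.3-fold apart, with a log2 fold change of 3.22 ± 0.19 (SE) and an adjusted p of 0.00381. The gene lies on chromosome 2 from 6018558 to 6023863 (TAIR10.1), and no other annotated gene overlaps it.

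EMF1 was at 7.73, 7.60 and 9.74 RPKM in wild-type callus and at 60.5, 69.0 and 68.4 RPKM in emf2 callus. The emf2 libraries lay close together and far from the wild type, with means 7.89-fold apart, a log2 fold change of 2.84 ± 0.12 (SE) and an adjusted p of 0.00106. EMF1 lies on chromosome 5 from 3695792 to 3701549 and shares no bases with another annotated gene. In the leaf libraries EMF1 was at 4.92, 5.25 and 5.02 RPKM. Of the 12 genes listed as Polycomb associated, 10 were in both tables, and EMF1 was the 1 that passed (0.124% of all genes tested passed). Of the others, LHP1, which binds the PRC2 mark, was at 8.87, 10.7 and 8.51 RPKM in wild-type callus and at 12.7, 13.8 and 13.1 RPKM in emf2 callus, with an adjusted p of 0.194. The remaining subunits of PRC2 that were listed (CLF, SWN, FIE, MSI1 and VRN2) had log2 fold changes between −0.13 and 0.14, and the FIS2 and MEA genes were in neither callus table.

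KNAT1, also called BREVIPEDICELLUS, a homeobox gene of the shoot meristem, was at 2.50, 3.89 and 3.61 RPKM in wild-type callus and at 11.3, 14.9 and 13.3 RPKM in emf2 callus. The means were 3.94-fold apart, with a log2 fold change of 1.71 ± 0.16 (SE) and an adjusted p of 0.0354. The call held without wild-type replicate 2 (adjusted p = 0.0238) and was lost without any 1 of the other 5 libraries, where the adjusted p was 0.0638 to 0.189. SHOOT MERISTEMLESS (STM), a gene of the same homeobox class that keeps meristem cells undifferentiated, was at 3.00, 0.651 and 3.89 RPKM in wild-type callus. It was at 20.9, 21.1 and 19.7 RPKM in emf2 callus. The STM groups were well apart, yet the low reading of wild-type replicate 2 widened the spread and the adjusted p was 0.0839. Without that library it was 0.00479. Leaving out any 1 of the other libraries gave an adjusted p for STM of 0.0724 to 0.293, and the replicate block gave 0.106. Of the other 11 genes of the shoot meristem list in a callus table, STM included, none passed. Over the 11 genes of the list in both tables, KNAT1 included, the median log2 fold change was 0.04. The groups were apart with means at least 2-fold different in 2 of them upward and 3 downward (1.68% and 1.66% of all genes tested). WUS and CLV3, which define the stem cell niche of the shoot, were in neither table.

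Other rises were in gene families of less known function. AT2G25330, a TRAF-like protein gene, was at 0.937, 1.02 and 1.13 RPKM in wild-type callus and at 16.8, 16.1 and 17.5 RPKM in emf2 callus. This was the lowest adjusted p of the comparison, 0.000341, with means 16.3-fold apart and a log2 fold change of 3.13 ± 0.09 (SE). Its nearest copy, AT2G25320, is 87.2% identical over 2047 aligned bases and stood at 10.8, 9.68 and 12.4 RPKM in wild-type callus against 10.3, 9.29 and 11.1 RPKM in emf2 callus. The copy therefore showed no such difference, although reads shared by both genes could have been split between them.

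Cystatin/monellin genes, which encode proteins related to inhibitors of cysteine proteases, rose in a pair on chromosome 5. AT5G05040 was at 2.47, 2.43 and 2.38 RPKM in wild-type callus and at 17.5, 18.4 and 16.3 RPKM in emf2 callus. AT5G05060 was at 11.0, 11.8 and 11.8 RPKM in wild-type callus and at 53.9, 56.3 and 49.8 RPKM in emf2 callus. Adjusted p-values were 0.000645 and 0.00106. The genes lie 5750 bases apart and are 95.3% identical over 514 aligned bases, so how the reads divide between them is uncertain. HAP8, at 3.74, 4.00 and 6.45 RPKM in wild-type callus and 34.8, 31.0 and 33.7 RPKM in emf2 callus, rose with its direct neighbour AT5G56240. AT5G56240 was at 19.2, 15.9 and 21.2 RPKM in wild-type callus and at 55.3, 61.9 and 52.1 RPKM in emf2 callus. These neighbours lie 3865 bases apart, are 71.3% identical over 579 aligned bases, and had adjusted p-values of 0.0121 and 0.0259.

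The last 3 rises were in AT5G60610, AT4G00390 and GLIP3. AT5G60610, an F-box protein gene of the RNI-like class, went from a mean of 1.22 ± 0.19 (SD, n = 3) to 11.0 ± 0.73 RPKM. AT4G00390, related to the DNA-binding storekeeper proteins, went from 1.07 ± 0.24 (SD, n = 3) to 5.85 ± 0.68 RPKM. GLIP3, a GDSL-type lipase gene, went from 1.48 ± 0.60 (SD, n = 3) to 9.37 ± 0.27 RPKM. In none of the 3 did the groups overlap, and the adjusted p-values were 0.00106, 0.0161 and 0.0259. Of the 11 genes that rose, 6 were not in the leaf table, among them AGL44, KNAT1 and GLIP3. The leaf table held 14476 of the 16185 genes tested.

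**Figure D3:**
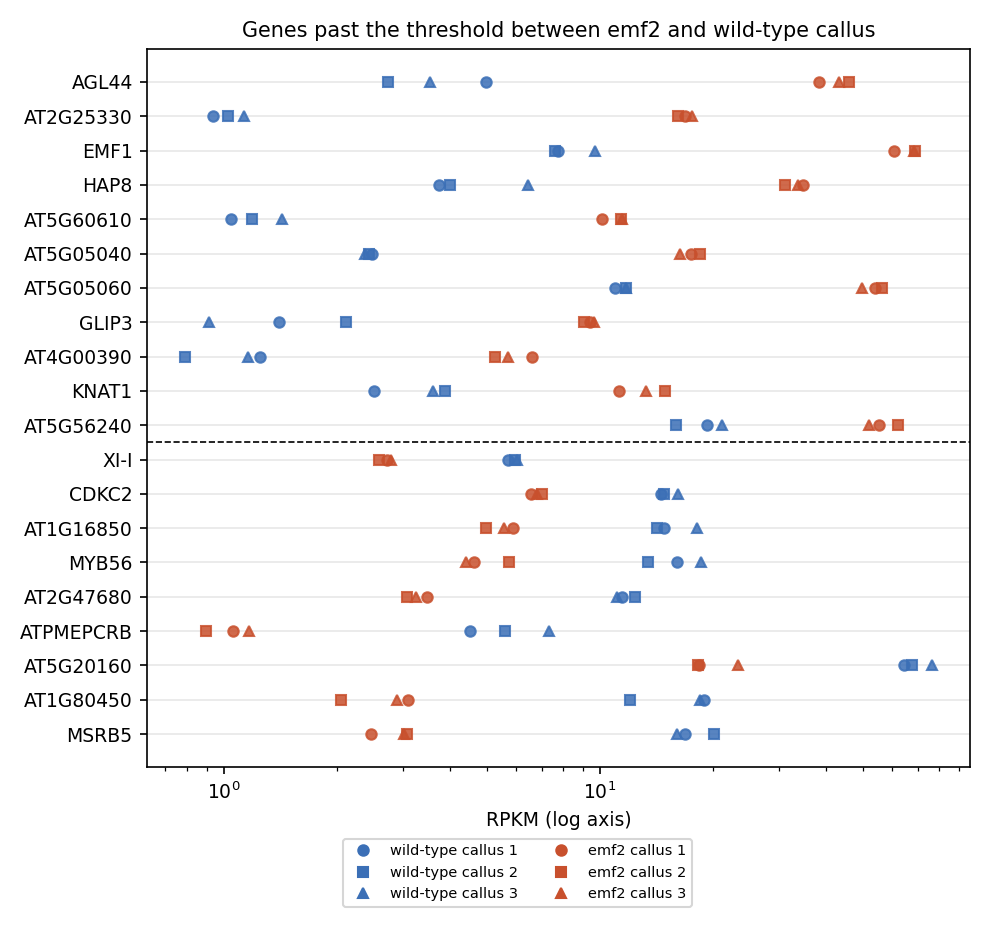
RPKM (log axis) in each of the 6 callus libraries for the 20 genes that passed, ordered by log2 fold change; blue marks wild-type callus, red emf2 callus, the shape gives the replicate, and the dashed line parts the 11 rises from the 9 falls. In every gene drawn the 3 libraries of one genotype lie clear of the 3 of the other, as for EMF1 at 60.5 to 69.0 RPKM in emf2 callus and 7.60 to 9.74 RPKM in wild-type callus.

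The falls were of 2.18-fold to 6.22-fold in group means, and the rises of 3.01-fold to 16.3-fold. MSRB5, a methionine sulfoxide reductase that repairs oxidised proteins, was at 16.9, 20.1 and 16.1 RPKM in wild-type callus and at 2.46, 3.07 and 3.01 RPKM in emf2 callus, and its log2 fold change was −2.28 ± 0.12 (SE) with an adjusted p of 0.00303. Its nearest copy, MSRB3, stood at 7.45, 6.87 and 9.30 RPKM in wild-type callus and 7.18, 7.74 and 9.02 RPKM in emf2 callus, and did not pass. AT1G80450, a VQ motif protein gene, was at 18.9, 12.1 and 18.5 RPKM in wild-type callus and at 3.09, 2.05 and 2.89 RPKM in emf2 callus. ATPMEPCRB, a pectin methylesterase that modifies the cell wall, was at 4.51, 5.59 and 7.32 RPKM in wild-type callus and at 1.06, 0.895 and 1.17 RPKM in emf2 callus. Their adjusted p-values were 0.0289 and 0.0354. The nearest copy of ATPMEPCRB, AT1G02810, is 75.9% identical over 1761 aligned bases and stood at 18.9, 11.1 and 15.8 RPKM in wild-type callus against 6.85, 6.35 and 6.08 RPKM in emf2 callus. Its log2 fold change was −1.10 with an adjusted p of 0.11, or 0.0199 without wild-type replicate 2, so the copy was lower too, and reads shared by both genes could have been split between them.

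Genes of RNA-binding proteins and of a transcription factor were also among the falls. AT5G20160, of the L7Ae family of RNA-binding and ribosomal proteins, had the highest level of the 9, with 64.2, 67.7 and 76.6 RPKM in wild-type callus and 18.4, 18.2 and 23.2 RPKM in emf2 callus. AT2G47680, a helicase with a CCCH zinc finger, was at 11.4, 12.4 and 11.1 RPKM in wild-type callus and at 3.48, 3.07 and 3.24 RPKM in emf2 callus. The transcription factor gene MYB56 was at 16.1, 13.5 and 18.5 RPKM in wild-type callus and at 4.62, 5.75 and 4.42 RPKM in emf2 callus. Their adjusted p-values were 0.0149, 0.00366 and 0.0354.

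CDKC2, a cyclin-dependent kinase that acts on transcription, was at 14.5, 14.8 and 16.1 RPKM in wild-type callus and at 6.57, 7.00 and 6.79 RPKM in emf2 callus. Its relative CDKC;1, 85.1% identical over 1360 aligned bases, stood at 8.93, 7.73 and 9.92 RPKM in wild-type callus and 7.89, 6.97 and 9.22 RPKM in emf2 callus, and did not pass. The annotation of CDKC2 shares 971 bases with AT5G64970, and the library kit did not keep the strand of reads. AT1G16850, a transmembrane protein gene, and XI-I, a class XI myosin, completed the falls with means 2.86-fold and 2.18-fold lower in emf2 callus. Of the 9 genes that fell, 8 were also in the leaf table, as were 14476 of the 16185 genes tested.

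Genes of the emf2 table alone could be tested only against the highest mean their absence from the wild-type table allows, 1 RPKM. These genes are in the set only because their emf2 mean is above 1 RPKM, so the listing fixes the direction, and the spread of the group not listed is assumed. The counts from this test, and the shares by family or motif built on them below, are therefore descriptions and support nothing. By that test 89 of 461 passed (19.3%), with 149 at an unadjusted p under 0.05. In the opposite direction 1 of 518 genes of the wild-type table alone passed (0.193%), with 44 at an unadjusted p under 0.05. All 3 libraries were above 1 RPKM in 252 of the 461 and in 162 of the 518. Without wild-type replicate 2 the wild-type count was 12, and without replicate 1 or 3 it was 0. The medians of the group means in the 2 sets were 1.49 and 1.48 RPKM, and in the 89 genes the median was 4.38 RPKM. In leaf, 217 of the 461 were listed (47.1%), and 21 of the 89 (23.6%).

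The highest level in the emf2 table alone was that of AT5G17090, another cystatin/monellin gene, with 85.2, 86.8 and 90.2 RPKM. A gene with a mean of at most 1 RPKM in wild-type callus thus had a higher RPKM than EMF1 in emf2 callus. A further cystatin/monellin gene, AT1G03710, was at 22.0, 18.6 and 19.4 RPKM. The storekeeper-related AT4G00250 was at 24.6, 28.3 and 22.2 RPKM, and TCP1, a transcription factor of the TCP class related to the genes that set flower symmetry in snapdragon, at 21.3, 15.7 and 16.9 RPKM. TT16, a MADS-box gene that acts in the seed coat, was at 16.0, 14.6 and 16.8 RPKM. The F-box gene AT5G56370 was at 16.3, 17.1 and 13.8 RPKM. Adjusted p-values for these 6 genes lay between 5.8e-05 and 0.000247. Unnamed proteins with domains of unknown function, AT1G27860 and AT1G20730, had means of 34.6 and 17.3 RPKM.

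MADS-box genes made up 14 of the 461 genes of the emf2 table alone (3.04%, against 0.198% of all genes in a callus table), and 9 of these 14 passed (64.3%, against 19.3% of all 461). This family, like the F-box and cystatin families below, was picked after the values were seen, by the words of the annotation, and its counts are a description. SEP2, which acts with other SEP genes in all whorls of the flower, was at 6.49, 10.4 and 8.41 RPKM, and SHP1, which acts in the fruit and ovule, at 9.78, 8.01 and 6.33 RPKM. AGL71 and AGL72, neighbours 1034 bases apart and relatives of the flowering gene SOC1, were at 4.68, 4.44 and 3.62 RPKM and at 9.23, 10.1 and 8.78 RPKM. MAF4 and MAF5, repressors of flowering that lie 1301 bases apart, were at 3.03, 2.71 and 2.35 RPKM and at 2.52, 2.51 and 1.78 RPKM. AGL17, a relative of AGL44, was at 5.96, 6.54 and 6.56 RPKM, and AGL14 at 2.48, 2.87 and 2.98 RPKM. All of these passed against the bound. The annotation of SHP1 shares 1011 bases with other genes.

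In the opposite direction the only gene that passed against the bound was also a MADS-box gene. AGL15, which promotes embryo fate in cultured tissue, was at 8.97, 9.30 and 7.19 RPKM in wild-type callus and not listed in emf2 callus, with an adjusted p of 0.0424. AGL16 was at 8.27, 7.15 and 7.11 RPKM in wild-type callus and at 3.85, 3.71 and 2.90 RPKM in emf2 callus, with an adjusted p of 0.0682. Of 17 MADS-box genes in both tables, AGL44 was the 1 that passed (0.124% of all genes tested passed), and the median log2 fold change was 0.18. The 518 genes of the wild-type table alone held 3 MADS-box genes, AGL15 included.

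**Figure D4:**
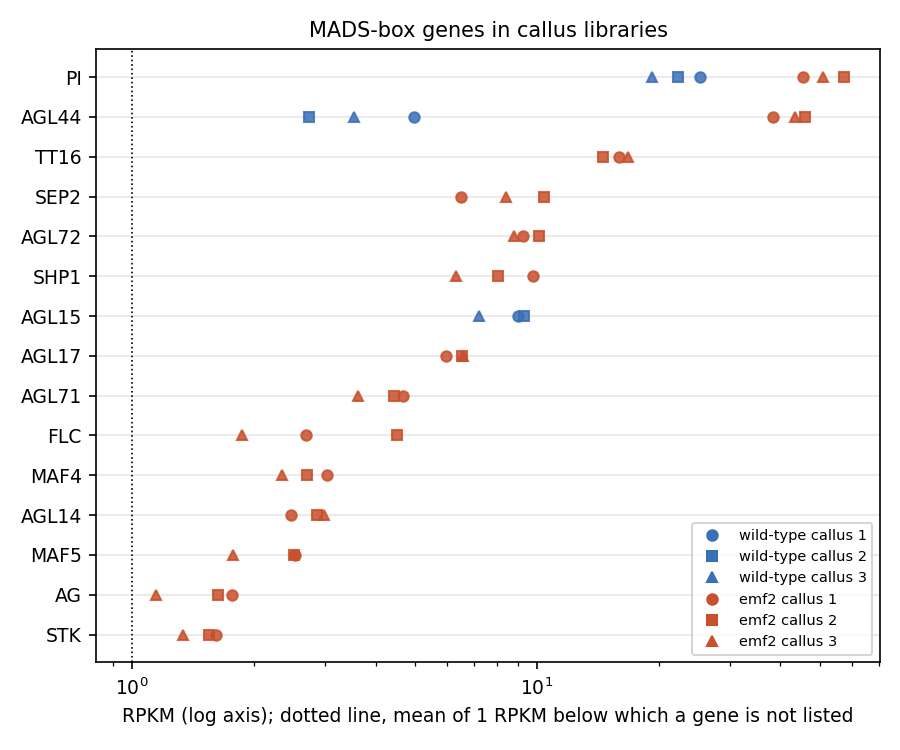
RPKM (log axis) of 15 MADS-box genes in each callus library that lists them, with blue for wild-type callus, red for emf2 callus and the shape for the replicate; a gene with points of 1 colour is not listed in the other genotype, where its mean is at most 1 RPKM (dotted line). PI and AGL44 have points in both genotypes, AGL15 in wild-type callus alone, and the other 12 in emf2 callus alone. The genes drawn are those that passed, with PI, FLC, AG and STK added. Of all 34 MADS-box genes in a callus table, 17 were in both, 14 in emf2 callus alone and 3 in wild-type callus alone.

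F-box genes, whose proteins choose targets for degradation, were 191 of the 17164 genes listed in a callus table (1.11%). Of 165 F-box genes in both tables, 9 were above the wild type in all 3 emf2 libraries with means at least 2-fold apart, and 0 were below in the same way (the shares over all genes were 1.68% and 1.66%). AT5G60610 was the only 1 of them that passed. In the emf2 table alone there were 22 F-box genes (4.77% of the 461), of which 13 passed (59.1%, against 19.3% of all 461). They include AT4G00160 at 15.9, 14.0 and 15.9 RPKM and AT3G16590 at 13.2, 13.6 and 12.8 RPKM. In the wild-type table alone there were 4 and none passed. Of 31 annotated cystatin/monellin genes, 11 were in both tables, where 2 rose and 0 fell (0.068% of all genes tested rose), and 4 were in the emf2 table alone, where 2 passed (19.3% of all 461 did). Along the chromosomes, 12 of the 100 genes that rose or passed in the emf2 table alone lay in 6 pairs within 20000 bases. The same count over all listed genes was not made. These pairs are therefore a description, and clustering was not tested.

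Windows of the genome around the starts of 6 of these genes are given because teloboxes (AAACCCTA on either strand) and GA repeats (GAGAGA on either strand) are known from Arabidopsis sequences that recruit PRC2. The windows run from 250 bases before to 50 bases after the annotated start of the gene in the RefSeq annotation of TAIR10.1, read 5′ to 3′ on the strand of the gene, with matches in capitals. These 6 were picked after the matches were seen, because each holds one. They are chr5:7835715-7836014 (plus strand) for TT16, chr4:113933-114232 (minus) for AT4G00250, chr1:25169658-25169957 (minus) for TCP1, chr5:5622493-5622792 (minus) for AT5G17090, chr4:172796-173095 (minus) for AT4G00390 and chr4:5151110-5151409 (minus) for KNAT1.
TT16: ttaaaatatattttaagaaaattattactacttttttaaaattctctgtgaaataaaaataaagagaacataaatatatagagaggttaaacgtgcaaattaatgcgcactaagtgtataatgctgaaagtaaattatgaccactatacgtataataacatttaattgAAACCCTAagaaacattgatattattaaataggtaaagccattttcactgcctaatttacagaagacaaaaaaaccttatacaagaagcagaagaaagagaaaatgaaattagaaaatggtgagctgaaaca
AT4G00250: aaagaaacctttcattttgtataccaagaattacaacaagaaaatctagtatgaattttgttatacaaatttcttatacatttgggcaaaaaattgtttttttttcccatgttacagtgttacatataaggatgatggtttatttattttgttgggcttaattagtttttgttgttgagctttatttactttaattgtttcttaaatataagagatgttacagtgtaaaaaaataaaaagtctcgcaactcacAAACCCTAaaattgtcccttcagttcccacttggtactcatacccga
TCP1: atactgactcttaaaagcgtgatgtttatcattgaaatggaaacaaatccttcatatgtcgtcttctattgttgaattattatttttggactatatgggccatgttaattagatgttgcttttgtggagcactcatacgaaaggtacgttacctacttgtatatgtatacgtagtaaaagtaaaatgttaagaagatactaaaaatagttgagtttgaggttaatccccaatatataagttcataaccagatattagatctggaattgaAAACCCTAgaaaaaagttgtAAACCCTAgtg
AT5G17090: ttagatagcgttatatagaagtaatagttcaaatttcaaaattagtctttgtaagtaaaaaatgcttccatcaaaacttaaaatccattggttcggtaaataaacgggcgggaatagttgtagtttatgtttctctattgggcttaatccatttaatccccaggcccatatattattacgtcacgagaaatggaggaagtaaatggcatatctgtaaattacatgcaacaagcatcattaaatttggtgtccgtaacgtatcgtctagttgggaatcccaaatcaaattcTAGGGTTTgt
AT4G00390: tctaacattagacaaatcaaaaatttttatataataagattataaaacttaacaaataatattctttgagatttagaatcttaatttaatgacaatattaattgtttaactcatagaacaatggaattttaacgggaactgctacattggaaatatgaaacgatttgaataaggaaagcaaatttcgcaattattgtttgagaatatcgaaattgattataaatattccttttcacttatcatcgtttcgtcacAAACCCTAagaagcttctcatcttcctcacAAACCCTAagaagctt
KNAT1: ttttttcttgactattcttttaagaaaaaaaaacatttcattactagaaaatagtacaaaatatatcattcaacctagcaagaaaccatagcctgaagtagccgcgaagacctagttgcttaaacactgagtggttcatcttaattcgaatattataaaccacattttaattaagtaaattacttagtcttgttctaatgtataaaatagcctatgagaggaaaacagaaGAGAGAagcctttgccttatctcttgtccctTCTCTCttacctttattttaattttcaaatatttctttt

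TT16, AT4G00250 and AT5G17090 hold 1 telobox each, TCP1 and AT4G00390 hold 2 each, and KNAT1 holds 2 GA repeats and no telobox. A telobox was found in 19 of the 89 windows of genes that passed in the emf2 table alone (21.3%), in 37 of all 461 of that table alone (8.03%) and in 30 of 518 of the wild-type table alone (5.79%). Over all 17146 windows of genes in a callus table the share was 6.03%. A telobox was in 1 of the 11 genes that rose and in 1 of the 9 that fell (11.1%). In the genes whose groups were apart by at least 2-fold, it was in 16 of 271 windows of the higher genes (5.9%) and in 10 of 267 of the lower (3.75%). The windows of EMF1, AGL44 and AT2G25330 held neither motif. GA repeats were in 30.3% of the 89 windows and in 28.8% of all. These shares describe letters in a short window, and binding was not measured here.

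Among genes of flower organ identity, 21 in the list, most were not detected at the level of listing in either genotype. AP1, AP3, SEP3, LFY and 10 others were in neither table. PISTILLATA (PI), which specifies petals and stamens together with AP3, was in both: 25.3, 22.4 and 19.3 RPKM in wild-type callus and 45.5, 57.5 and 50.9 RPKM in emf2 callus. The groups were apart, and the adjusted p was 0.059, or 0.0461 without wild-type replicate 2. AGAMOUS (AG), the gene of stamens and carpels, was at 1.77, 1.63 and 1.15 RPKM in emf2 callus and STK, an ovule gene, at 1.61, 1.55 and 1.33 RPKM. Neither AG nor STK passed against the bound. The list thus holds 5 genes of the emf2 table alone and 0 of the wild-type table alone. Of the 5, TT16, SEP2 and SHP1 passed against the bound (19.3% of all 461 did).

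Of 25 genes of flowering time, 10 were in both tables and none of those passed. Another 7 were in the emf2 table alone, as were 461 of all 17164 genes in a callus table. Against the bound, where the listing fixes the direction, 5 of the 7 passed (19.3% of all 461 did). These were AGL17, AGL71, AGL72, MAF4 and MAF5. FLC, the main repressor of flowering and a known PRC2 target, was at 2.69, 4.51 and 1.87 RPKM in emf2 callus, with an adjusted p of 0.0838 against the bound. The FLC gene lies wholly within the span of another annotated gene, so its reads cannot be assigned by strand. FT and SOC1, which promote flowering, were in neither table. TEM1, a repressor of FT, was at 32.7, 35.1 and 29.6 RPKM in wild-type callus and at 9.48, 7.58 and 12.4 RPKM in emf2 callus. TOE2, a repressor of flowering of the AP2 class, was at 11.7, 10.4 and 7.57 RPKM in wild-type callus and at 3.13, 2.80 and 2.66 RPKM in emf2 callus. Both had an adjusted p of 0.054, and 0.0405 and 0.0414 without wild-type replicate 2.

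None of the 17 genes of the root stem cell and founder list in both tables passed. WOX11, which starts the founder cells of roots and callus, was at 76.2, 86.4 and 100 RPKM in wild-type callus and at 41.7, 36.3 and 36.1 RPKM in emf2 callus, with an adjusted p of 0.054. PLT5 was at 13.0, 15.2 and 12.4 RPKM in wild-type callus and at 5.13, 3.79 and 6.11 RPKM in emf2 callus. SCR, a gene of the root stem cell niche, was at 10.6, 13.7 and 8.62 RPKM in wild-type callus and at 27.7, 31.7 and 24.2 RPKM in emf2 callus. Among these 17 genes, the groups were apart with means at least 2-fold different in 3 upward and 2 downward (1.68% and 1.66% of all genes tested). The adjusted p-values of PLT5 and SCR were 0.067 and 0.0839. Without wild-type replicate 2, WOX11, SCR and JKD passed, as did 254 of all 16185 genes tested.

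ERF115, a factor of wound repair and stem cell renewal, had the largest difference of any list member: 35.7, 11.5 and 27.2 RPKM in wild-type callus and 1.73, 1.76 and 1.00 RPKM in emf2 callus. The log2 fold change was −3.25 ± 0.40 (SE) with an adjusted p of 0.0611, and without wild-type replicate 2 it was 0.00553. ERF114 was at 124, 144 and 187 RPKM in wild-type callus and at 61.7, 34.3 and 53.1 RPKM in emf2 callus, with an adjusted p of 0.0948. WIND1, which drives dedifferentiation at wounds, was at 207, 191 and 180 RPKM in wild-type callus and at 154, 185 and 151 RPKM in emf2 callus. None of the 8 wound and callus induction genes in both tables passed. ESR1, a shoot regeneration factor, was at 10.3, 3.50 and 14.3 RPKM in wild-type callus and at 2.39, 1.10 and 1.45 RPKM in emf2 callus, with an adjusted p of 0.232, or 0.0273 without wild-type replicate 2.

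**Figure D5:**
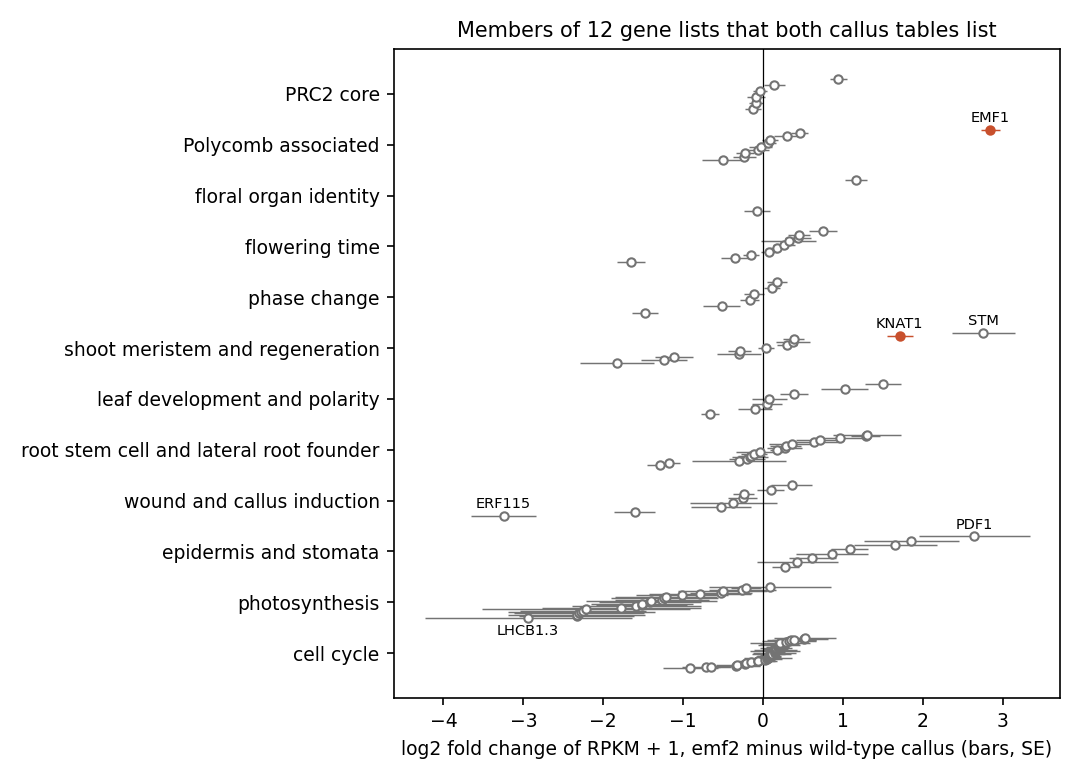
Log2 fold change of RPKM + 1, emf2 minus wild-type callus, with its standard error, for the members of 12 gene lists that both callus tables list; filled red points passed and open points did not. EMF1 and KNAT1 are the only filled points, and STM, PDF1, ERF115 and LHCB1.3 lie far from 0 with wider errors.

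Markers of other tissues stood at different levels in the 2 groups in places, but no epidermis or leaf development gene in both tables passed. In bulk RNA, fewer cells of a type and less RNA per cell cannot be told apart. The 8 epidermis genes in both tables had a median log2 fold change of 0.97, against 0.00101 over all genes. In 4 of them all emf2 libraries were above the wild type with means at least 2-fold apart (1.68% of all genes tested). None of the 8 passed. The summed level of the epidermis list was 1103 to 1443 RPKM in wild-type callus and 1573 to 2493 RPKM in emf2 callus. ATML1 and PDF2, the factors that define the outermost cell layer, were in the emf2 table alone, at 3.37, 3.06 and 3.89 RPKM and at 2.05, 2.70 and 2.04 RPKM, and both passed against the bound. KCS6, which makes cuticular wax, was at 40.1, 61.2 and 12.5 RPKM in wild-type callus and at 162, 77.3 and 126 RPKM in emf2 callus. Of 3 leaf polarity and leaf shape genes in the emf2 table alone, YAB2 and TCP10 passed against the bound, with means of 3.20 and 2.40 RPKM. Of all 461 genes of that table alone, 19.3% passed. The other 11 of the 21 epidermis and stomata genes, among them SPCH, MUTE and FAMA, which make stomata, were in neither table. The part of cell makeup in the other results was not tested.

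Photosynthesis genes varied widely within the wild type. Their summed level was 869, 86.6 and 217 RPKM in the 3 wild-type libraries and 48.8, 110 and 74.4 RPKM in the 3 emf2 libraries. Wild-type replicate 1 was the high library, and LHCB1.3, an antenna protein gene, was at 247, 6.79 and 66.6 RPKM in wild-type callus and at 1.67, 11.3 and 7.79 RPKM in emf2 callus. The 23 of 49 genes in both tables had a median log2 fold change of −1.41 and none passed. In 8 of the 23 all emf2 libraries were below the wild type with means at least 2-fold apart, and in 0 above. The shares over all genes tested were 1.66% and 1.68%. Another 13 were in the wild-type table alone with none passing. Lists of endosperm and of anther and tapetum genes had no member in either callus table. Of 30 embryo and seed maturation genes, 24 were in neither table, and BBM, which can induce embryos from cultured cells, was at 13.4, 21.7 and 10.9 RPKM in wild-type callus and at 17.4, 25.3 and 16.0 RPKM in emf2 callus. Over all 29 lists, 287 genes were in both tables, and EMF1 and KNAT1 were the 2 that passed (0.124% of all genes tested passed). Without wild-type replicate 2 there were 13 such genes, 8 higher and 5 lower. In that setting 254 of all 16185 genes tested passed, 104 higher and 150 lower.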

How the data were processed

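The authors' deposited values are RPKM per gene and library, 1 table per group, listing genes with a group mean above 1 RPKM per the file headers. Per the labels, polyA-selected RNA was made into TruSeq RNA V2 libraries with 15 PCR cycles. The submitters' processing notes name FastQC, cutadapt, TopHat and TAIR10; the read counter is not given in the sources used here. The genes and lists described were chosen with earlier results of these data known. RPKM was tested as log2(RPKM + 1) with limma 3.58.1 in R 4.3.3 (eBayes with a trend on the mean) over the 6 callus libraries alone, 2-sided, with Benjamini-Hochberg adjustment over 16185 genes and a threshold of 0.05. The pseudocount of 1 draws changes of low genes toward 0. A gene in 1 table alone was tested against a mean of 1 RPKM in the absent group, assumed to vary like the listed group, and adjusted within its table. The design preferred counts; the unit found was RPKM, so the test for RPKM was used. Whole reads were recovered from ratios of RPKM at a relative tolerance of 1e-12 for 16180 genes (99.97%), and limma's voom on them called 24 genes. Named genes were EMF2, the 10 largest rises and the falls past the threshold among genes with a higher mean of at least 5 RPKM, list members that passed, and the 8 highest genes that passed in each table alone; AT5G56240, genes near the threshold and the MADS-box, F-box and cystatin families were added after their values were seen, MADS-box genes being those whose description or RefSeq product names the protein so or as AGAMOUS-like. Of 17164 genes, 17147 matched the TAIR10.1 annotation, from which coordinates, overlaps and windows were read; copies were found with blastn 2.17.0. The fit was tested on simulated data. Alternatives were another pseudocount, filter, scaling, moderation and bound, a replicate block, each library left out, and all 9 libraries together; robust moderation and voom were added after the data were seen.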

Additional observations from a re-analysis of the deposited data

How the results depend on the processing

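The 20 genes that passed kept their sign under each alternative that tested them. The count stayed at 19 to 24 under a pseudocount of 0.1, a mean of at least 5 RPKM, median-of-ratios scaling, all 9 libraries, no trend, robust moderation and voom. Of the 20, 19 passed under the pseudocount and voom, 17 under the filter, and all 20 under median-of-ratios scaling, no trend, robust moderation and quantile normalization; with all 9 libraries 13 could be tested and 10 passed. Quantile normalization gave 47, with 23 higher, 24 lower and 39 at least 2-fold. With 1 library left out the count ranged from 7 to 254, the higher from 5 to 104, the lower from 2 to 150 and those at least 2-fold from 7 to 206; the highest values came without wild-type replicate 2, and the lowest without emf2 replicate 3. The replicate numbers did not pair the libraries: deviations of same-numbered libraries correlated at −0.16, 0.19 and 0.60, and wild-type replicates 1 and 2 correlated best with another number. With the number as a block 10 genes passed, 7 higher, 3 lower and 10 at least 2-fold, of which 9 were among the 20. The EMF2 difference passed with 0.95 under the filter of 5 RPKM, 0.95 under quantile normalization and 1.07 under voom, and ranged from 0.88 to 1.03 with 1 library left out, passing without wild-type replicate 2. With the bound at 0.5 RPKM, 327 genes of the emf2 table alone and 10 of the wild-type table alone passed. Leaving out a library gave 61 to 80 and 0 to 12. Taken gene by gene over these same alternatives of the fit, the calls of the 20 genes were kept 221 times and lost 72 times. Of the losses, 11 came with the replicate block. Each left-out library other than wild-type replicate 2 gave 4 to 13. Causes were not tested.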

Other observations

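Among genes of DNA methylation, ROS1, a DNA demethylase, was at 2.40, 3.55 and 0.557 RPKM in wild-type callus and at 12.1, 14.6 and 6.16 RPKM in emf2 callus. The groups did not overlap, and the limma adjusted p was 0.207. None of the 11 genes of that list in both tables passed. Of 38 cell cycle genes, 36 were in both tables and none passed, the median log2 fold change being 0.13. All 16 core hypoxia genes were in both tables, with a summed level of 3244 to 3388 RPKM in wild-type callus and 2346 to 3235 RPKM in emf2 callus, and none passed. Of 21 auxin response genes in both tables none passed, and the median log2 fold change was −0.23.

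Of the 20 genes that passed, 3, 3, 0, 5 and 9 lay on chromosomes 1 to 5. The shares of the genes tested were 26.4%, 15.1%, 20.1%, 15.1% and 23.4%. EMF2 itself lies on chromosome 5 from 20823644 to 20829644 (TAIR10.1). In the wider set of genes whose groups were apart by at least 2-fold, the shares of the genes tested per chromosome were 3%, 3.9%, 3.38%, 3.81% and 2.99%. In leaf, which takes no part in the comparison, EMF2 was at 5.50, 6.07 and 29.6 RPKM, so that 1 leaf library had a higher EMF2 level than any callus library.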
